A study of Homo sapiens with 31 samples.

Results

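The effect of cyclophosphamide (CPA) on gene expression was examined in tumours of the resistant PC3 clone D3, by setting 4 arrays of CPA-treated D3 tumours against 4 arrays of untreated D3 tumours. These 8 arrays were taken by their titles from the 31 arrays of a study of resistance to metronomic CPA, and the comparison ran over 17314 genes. PC3 is an established human prostate carcinoma line. D3 is a single clone that was re-isolated after passage in animals, cultured again, and implanted to grow as a xenograft, and the labels call it resistant to CPA. In the treated D3 group, tumours that had reached a mean volume of 30 mm3 received CPA at 120 mg/kg by intraperitoneal injection, and the untreated D3 group served as control. The same 2 arms existed for D4, a second passaged clone labelled resistant, for A3, a passaged clone labelled sensitive, and for the unpassaged line (wt), also labelled sensitive. Untreated A3 had 3 arrays and each of the other groups 4. The sources used here do not give the host strain, the number of CPA doses or the time between dosing and sampling.

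CPA is a prodrug that liver cytochrome P450 enzymes convert to a reactive mustard, which alkylates DNA and crosslinks its strands. Cells with crosslinked DNA meet blocks in replication, and checkpoint signalling through the kinases ATR and CHEK1 can delay their entry into mitosis. The genes for mitotic entry, the spindle and cytokinesis are normally transcribed as a wave in late S and G2 phase, while the genes of the replicative histones are transcribed during S phase.

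Levels below are deposited log2 values, and a difference is CPA minus untreated on that log2 scale with its standard error (SE) from the limma fit. A gene was called when its p-value was under 0.05 after Benjamini-Hochberg adjustment over all genes. The arrays correlated across genes at 0.990 to 0.996 within the CPA group and at 0.993 to 0.997 within the untreated group. CPA replicate 5 stood apart: the interquartile range of its log2 values was 2.64, the lowest of all 31 arrays, whose range was 2.64 to 3.02, and without it the CPA arrays correlated at 0.994 to 0.996. Results that rest on it are therefore given with and without it. Of 11 markers of an epithelial PC3 carcinoma, 9 stood above the median gene in untreated tumours, with KRT8 at 9.95 in CPA tumours and 10.00 in untreated tumours and KRT18 at 9.99 and 10.03, at percentiles 94.9 and 95.2 of all gene levels in untreated tumours. The other two, the cadherin CDH1 and the keratin KRT7, stood at percentiles 33.8 and 43.2. Of 9 measured prostate lineage genes, 4 stood above the median gene. HOXB13 was at 10.54 in CPA tumours and 10.46 in untreated tumours, at percentile 97.1. The prostate secretory gene KLK3 was at 5.97 in CPA tumours and 5.93 in untreated tumours, at percentile 28.9. Nothing in the labels states that the replicates came from separate animals, so the p-values cover only the spread between arrays of the same group, pooled over all 31 arrays, and that spread may be technical.

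CPA-treated D3 tumours had lower levels of mitotic and histone genes than untreated D3 tumours. In all, 40 of 17314 genes were called (0.231%), and all 40 were lower with CPA. They were 1.27 to 2.43 times lower, and 3 of them, the kinesin KIF20A, the mitotic kinase PLK1 and the hyaluronan-mediated motility receptor HMMR, were at least 2 times lower. No gene was called higher by limma, although 1051 genes were higher and 1159 were lower at an unadjusted p under 0.05, 12.8% of all genes together. In each of the 40 genes the 4 CPA arrays lay below the 4 untreated arrays, an order that 977 genes (5.64%) showed in all; 686 genes (3.96%) showed the opposite order. These are bulk tumour samples, in which fewer cells of a type and less RNA per cell cannot be told apart.

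Among the called genes CENPE had the largest adjusted p, 0.0390. Just outside the threshold lay E2F5 (-0.42 ± 0.10 SE, limma adjusted p = 0.0546), and CRYBB3 had the smallest adjusted p among genes with a positive difference (0.34 ± 0.08 SE, limma adjusted p = 0.0547). The median SE of a difference was 0.104, and the median difference over all genes was 0.01.

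**Figure D1:**
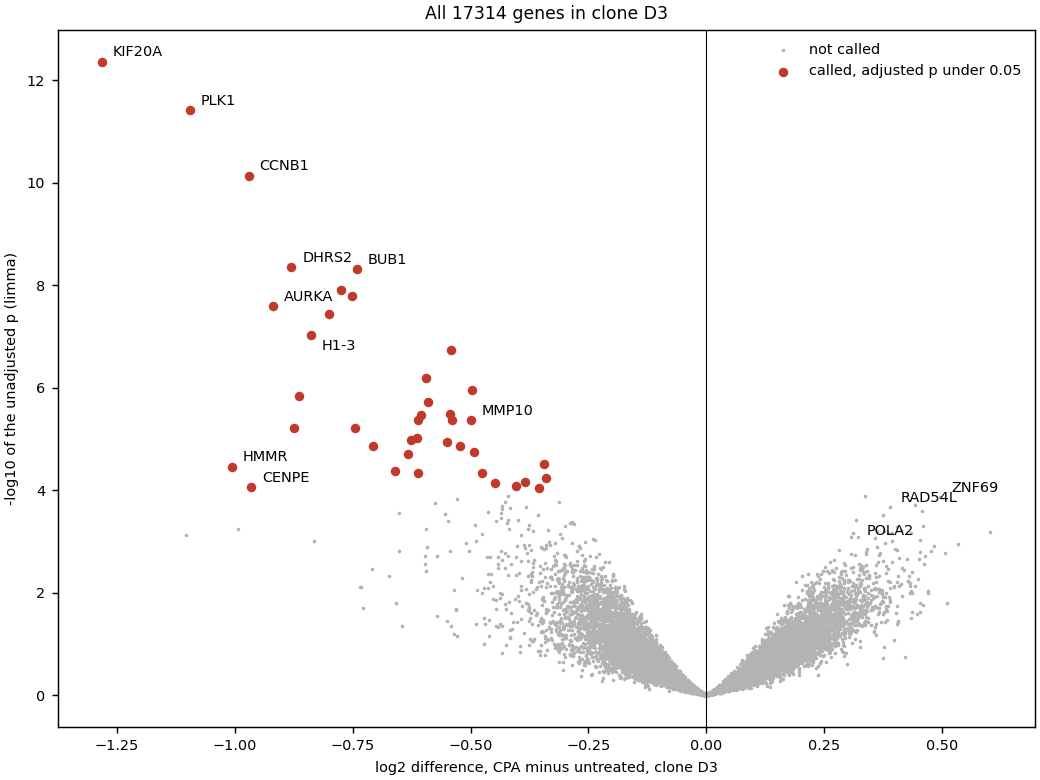
Each point is 1 of 17314 genes, with its log2 difference (CPA minus untreated, clone D3) on the horizontal axis and -log10 of its unadjusted limma p on the vertical axis. The 40 called genes, in red, all lie left of 0, and no gene right of 0 was called.

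KIF20A, a kinesin that carries chromosomal passenger proteins to the spindle midzone and is needed for cytokinesis, had the largest difference. Its log2 levels were 7.66, 7.57, 7.67 and 7.67 in CPA tumours, against 8.86, 8.95, 8.87 and 9.02 in untreated tumours. The highest CPA array lay more than 1 log2 unit below the lowest untreated array, and KIF20A fell by 1.28 (± 0.11 SE, limma adjusted p = 7.6e-09).

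PLK1, the polo-like kinase that drives mitotic entry and spindle assembly, had log2 levels of 9.05, 8.83, 9.08 and 8.71 in CPA tumours, against 10.11, 9.91, 10.06 and 9.97 in untreated tumours. It was lowest on CPA replicate 5, and the groups were clearly apart on the other CPA arrays too (-1.10 ± 0.10 SE, limma adjusted p = 3.3e-08). CCNB1, the cyclin B1 that activates CDK1 at the entry into mitosis, had log2 levels of 9.54, 9.50, 9.46 and 9.33 in CPA tumours, against 10.46, 10.32, 10.43 and 10.51 in untreated tumours. The spread within each group was small beside the gap between them (-0.97 ± 0.10 SE, limma adjusted p = 4.2e-07).

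**Figure D2:**
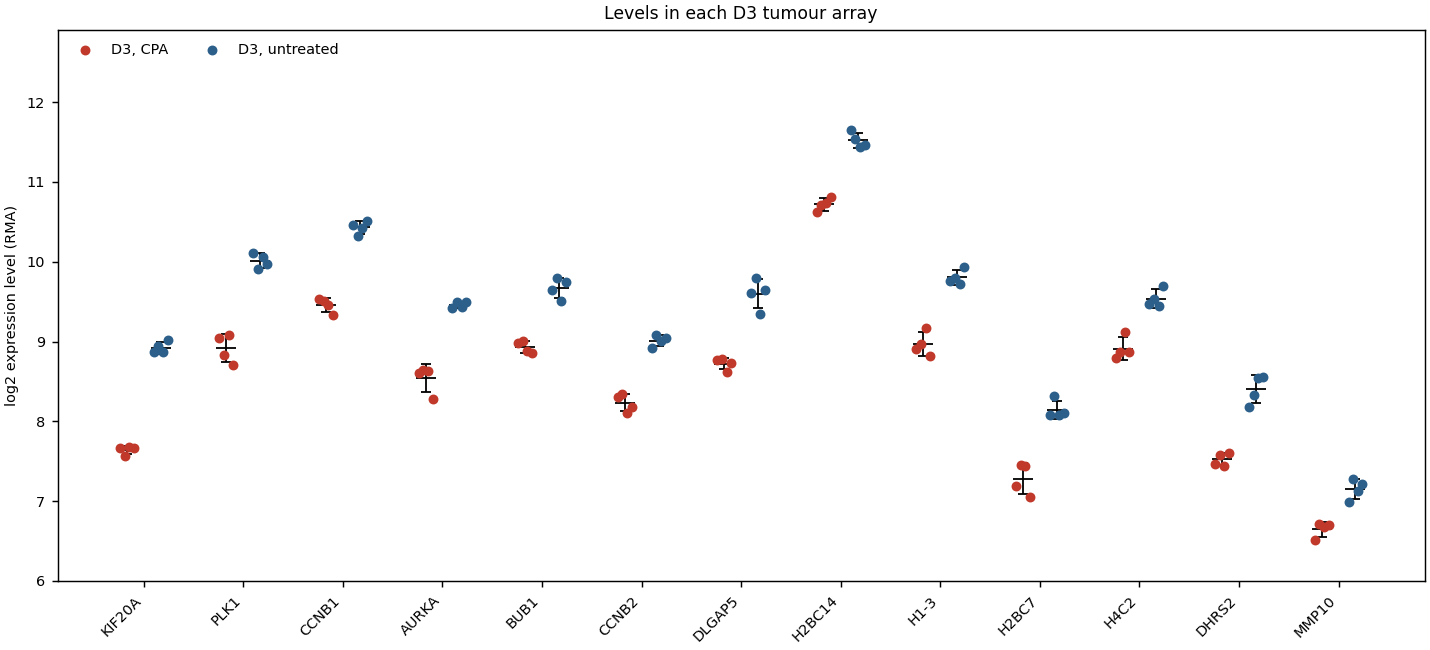
The vertical axis is the log2 RMA level of 13 called genes, each point is 1 D3 array, and the horizontal mark and bar give the mean and SD of 4 arrays. CPA tumours are in red at the left of each pair and untreated tumours in blue at the right, and for each of these genes the red points lie below the blue points.

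Promoter windows of these 3 genes are shown because genes of the G2 and M phases are known for a shared promoter layout. In human cells, the cell cycle genes homology region (CHR) binds the MuvB complex, and CCAAT boxes upstream of it bind the factor NF-Y. The windows run from 250 bases before to 50 bases after the transcription start, 5′ to 3′ in the direction of the gene, and come from RefSeq on GRCh38.p14. Capitals mark matches to TTTGAA (the CHR), TTTAAA (a CHR variant), CCAAT and TTTGCAT, searched on both strands, so that ATTGG is a CCAAT box read from the other strand. No string searched contains another, and TTTAAA reads the same on both strands.
KIF20A, chr5:138178862-138179161, plus strand: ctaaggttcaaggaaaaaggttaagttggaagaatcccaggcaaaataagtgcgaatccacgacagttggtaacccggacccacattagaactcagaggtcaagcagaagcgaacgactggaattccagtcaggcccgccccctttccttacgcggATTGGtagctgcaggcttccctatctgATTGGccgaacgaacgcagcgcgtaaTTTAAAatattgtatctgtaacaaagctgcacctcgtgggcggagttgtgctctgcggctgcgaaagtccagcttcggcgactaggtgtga
PLK1, chr16:23678639-23678938, plus strand: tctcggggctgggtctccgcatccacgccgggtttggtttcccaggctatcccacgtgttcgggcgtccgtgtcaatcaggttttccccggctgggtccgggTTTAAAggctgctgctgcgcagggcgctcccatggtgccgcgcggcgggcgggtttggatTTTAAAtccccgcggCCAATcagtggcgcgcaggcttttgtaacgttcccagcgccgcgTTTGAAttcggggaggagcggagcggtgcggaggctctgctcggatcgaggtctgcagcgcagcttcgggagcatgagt
CCNB1, chr5:69166900-69167199, plus strand: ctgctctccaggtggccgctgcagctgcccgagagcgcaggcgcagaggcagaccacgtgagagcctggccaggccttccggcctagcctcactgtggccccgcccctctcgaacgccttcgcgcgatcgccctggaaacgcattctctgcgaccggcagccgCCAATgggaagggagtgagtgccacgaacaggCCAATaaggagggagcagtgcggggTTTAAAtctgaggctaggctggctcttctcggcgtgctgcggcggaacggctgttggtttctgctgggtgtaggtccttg

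In the KIF20A window TTTAAA began at position -41 from the start, below inverted CCAAT boxes at -94 and -67. The PLK1 window held TTTGAA at -29, a CCAAT box at -73 and TTTAAA at -148 and -88. In the CCNB1 window TTTAAA began at -30, with CCAAT boxes at -87 and -55. Each of these windows thus held a CHR form within 50 bases of the start, with a CCAAT box upstream of it.

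Of the 40 called genes 36 had a promoter window in the table; AURKA, TPX2, FAM83D and RACGAP1 did not. This layout, a CHR form beginning in the 50 bases before the start with a CCAAT box upstream of it, occurred in 13 of the 36 (36.1%), against 1.98% of the 13459 measured genes with a window and 2.03% of all 27305 genes with one. Those 13 included the histone genes H2BC3 and H2BC14. H2BC14 was counted through TTTAAA at -33, and a string count cannot tell a CHR from another element with these letters. The strings were also counted anywhere in the window. TTTGAA occurred in 17 of the 36 (47.2%), against 15.6% of measured and 18.2% of all genes. TTTAAA occurred in 13 (36.1%, against 12.4% of measured and 14.5% of all genes), and CCAAT in 28 (77.8%, against 42.2% and 39.7%). Either CHR form together with a CCAAT box occurred in 22 (61.1%), against 10.1% of measured and 11.2% of all genes. In the mitosis list these strings were common whether or not a gene was called. TTTGAA occurred in 20 of its 29 measured genes with a window (69.0%) and in 7 of the 13 called ones (53.8%). The layout occurred in 14 of the 29 (48.3%) and in 7 of the 13 (53.8%). Of the 40 genes of the DNA replication list with a window, 7 held either CHR form (17.5%), against 24.1% of measured genes. A match is a string of letters in these windows and no measurement of binding.

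Among the called genes that regulate entry into mitosis, AURKA, the centrosomal kinase that activates PLK1, had log2 levels of 8.61, 8.64, 8.63 and 8.28 in CPA tumours, against 9.42, 9.49, 9.44 and 9.49 in untreated tumours. It was lowest on CPA replicate 5, and the groups did not overlap (-0.92 ± 0.12 SE, limma adjusted p = 5.6e-05). TPX2, the spindle protein that activates AURKA, fell by 0.54 (± 0.10 SE), and CCNB2, the second B-type cyclin, fell by 0.78 (± 0.10 SE). CDKN3, a phosphatase that acts on cyclin-dependent kinases, fell by 0.74 (± 0.14 SE), and CCNF, the cyclin F that serves in an SCF ubiquitin ligase, fell by 0.54 (± 0.10 SE). GTSE1, a microtubule-associated protein of G2 and M phase, fell by 0.34 (± 0.07 SE), and its call was lost in each of the 8 fits that left out 1 D3 array.

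Of the kinetochore and the spindle checkpoint some genes were called and others were not. BUB1, a kinase of the spindle assembly checkpoint, had log2 levels of 8.98, 9.01, 8.88 and 8.86 in CPA tumours, against 9.64, 9.79, 9.50 and 9.74 in untreated tumours. The lowest untreated array stood well above the highest CPA array (-0.74 ± 0.09 SE, limma adjusted p = 1.7e-05). CENPE, the kinetochore kinesin that helps to align chromosomes, had log2 levels of 6.64, 6.67, 6.49 and 6.37 in CPA tumours, against 7.41, 8.07, 7.001 and 7.55 in untreated tumours. Its untreated arrays were widely spread, and its call (-0.97 ± 0.21 SE, limma adjusted p = 0.0390) remained in only 1 of the 8 fits that each left out 1 D3 array. KIF2C, a kinesin that depolymerises microtubules at the centromere, fell by 0.49 (± 0.10 SE), and CDCA8, the borealin of the chromosomal passenger complex, fell by 0.59 (± 0.10 SE). CDC20, which activates the anaphase-promoting complex, fell by 0.59 (± 0.09 SE), and PTTG1, the securin that this complex destroys, fell by 0.55 (± 0.10 SE). Genes of the same roles that were not called included the checkpoint genes BUB1B (-0.34 ± 0.10 SE, limma adjusted p = 0.181), BUB3 (-0.27 ± 0.09 SE, adjusted p = 0.281) and TTK (-0.37 ± 0.21 SE, adjusted p = 0.449). The genes NDC80 and NUF2, whose proteins bind microtubules at the kinetochore, had -0.50 (± 0.14 SE, limma adjusted p = 0.195) and -0.16 (± 0.21 SE, adjusted p = 0.749).

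Spindle genes included HMMR, which binds microtubules at the centrosome. Its log2 levels were 7.26, 7.13, 6.94 and 6.79 in CPA tumours, against 8.16, 8.27, 7.54 and 8.18 in untreated tumours. Untreated replicate 3 was low and close to the CPA arrays, and the call (-1.01 ± 0.21 SE, limma adjusted p = 0.0196) remained in 3 of the 8 fits that each left out 1 D3 array. DLGAP5, which stabilises kinetochore fibres, fell by 0.87 (± 0.16 SE), and GPSM2, which links the spindle to the cell cortex and orients it, fell by 0.75 (± 0.10 SE). FAM83D, which recruits a kinase to the spindle, fell by 0.54 (± 0.08 SE).

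Genes of the central spindle and of cytokinesis were likewise called in part. PRC1, which bundles the microtubules of the central spindle, had log2 levels of 9.44, 9.40, 9.40 and 9.34 in CPA tumours, against 9.89, 9.91, 9.83 and 9.94 in untreated tumours. Both groups were tight, and PRC1 fell by 0.50 (± 0.08 SE, limma adjusted p = 0.00151). KIF23 and RACGAP1, the kinesin and the GTPase-activating protein that together form centralspindlin, fell by 0.61 (± 0.12 SE) and 0.36 (± 0.08 SE), and the call of RACGAP1 was lost in each of the 8 fits that left out 1 D3 array. KIF14 and KIF4A, kinesins of cytokinesis and of the central spindle, had -0.71 (± 0.22 SE, limma adjusted p = 0.255) and -0.23 (± 0.11 SE, adjusted p = 0.398) and were not called. GAS2L3, which links actin and microtubules, fell by 0.63 (± 0.12 SE). CDCA3, which targets WEE1 for degradation and so promotes mitotic entry, fell by 0.45 (± 0.10 SE), and PRR11, a gene expressed late in the cell cycle, fell by 0.61 (± 0.11 SE).

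Across the mitosis list, 15 of 35 measured members were called lower and none higher, beside 0.231% called over all genes. Of the 35, 34 had a difference below 0. The median of the list was -0.49, beside 0.01 over all genes, of which 47.0% were below 0. The members that were not called included MKI67, the proliferation marker (-0.44 ± 0.11 SE, limma adjusted p = 0.101), KIF18A, a kinesin that limits chromosome movement (-0.83 ± 0.23 SE, adjusted p = 0.166), and TOP2A, topoisomerase II alpha (-0.48 ± 0.17 SE, adjusted p = 0.295). CDK1, the kinase partner of the B cyclins, had a difference of -0.27 (± 0.18 SE). AURKB, the kinase of the chromosomal passenger complex, had -0.04 (± 0.07 SE), and FOXM1, a transcription factor of G2 genes, had 0.03 (± 0.12 SE), the sole value above 0 in the list. Without CPA replicate 5, 12 of the 35 were called lower and the median was -0.47. The list mean was 8.50 to 8.63 on the CPA arrays, against 8.92 to 9.24 on the untreated arrays.

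Replicative histone genes, which supply new chromatin during S phase, were the second group. The levels of 9 of them fell: H2BC7, H1-3, H2BC14, H2AC4, H4C2, H2AC15, H2BC3, H2BC11 and H2AC20. H2BC14, an H2B gene of the large cluster on chromosome 6, had log2 levels of 10.62, 10.71, 10.74 and 10.82 in CPA tumours, against 11.65, 11.54, 11.44 and 11.46 in untreated tumours. The gap exceeded the spread of both groups (-0.80 ± 0.11 SE, limma adjusted p = 7.1e-05). The linker histone gene H1-3 had log2 levels of 8.91, 8.96, 9.17 and 8.82 in CPA tumours, against 9.76, 9.80, 9.72 and 9.94 in untreated tumours. Its groups were also apart (-0.84 ± 0.12 SE, limma adjusted p = 1.7e-04).

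H2BC7 fell by 0.86 (± 0.14 SE), the largest difference among the 9, and H2AC20 by 0.47 (± 0.10 SE), the smallest. H4C2, which encodes histone H4, fell by 0.63 (± 0.12 SE). Many histone genes are near-identical copies that an array cannot fully separate, so which copies fell is uncertain. In the histone list, which did not hold H2AC15 and H2AC20, 7 of 41 measured members were called lower and none higher. Of the 41, 39 were below 0, and the median was -0.30. Over all genes, 0.231% were called and 47.0% were below 0. The list mean was 7.08 to 7.24 on the CPA arrays, against 7.45 to 7.54 on the untreated arrays. Without CPA replicate 5 the median was -0.29 and 4 members were called lower.

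The promoter of H2BC14 is shown as the histone gene with the smallest adjusted p. In human H2B promoters the octamer, of which TTTGCAT is a part, is known to bind OCT1. Capitals mark the same strings as above.
H2BC14, chr6:27814772-27815071, plus strand: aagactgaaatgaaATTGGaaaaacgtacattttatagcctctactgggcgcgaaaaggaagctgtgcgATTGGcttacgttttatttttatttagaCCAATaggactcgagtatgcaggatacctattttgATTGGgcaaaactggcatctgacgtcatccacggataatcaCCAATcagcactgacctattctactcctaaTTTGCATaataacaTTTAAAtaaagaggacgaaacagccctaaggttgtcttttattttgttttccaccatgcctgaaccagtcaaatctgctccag

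In this window TTTGCAT began at -47 and TTTAAA at -33, with CCAAT boxes in either direction between -236 and -77. TTTGCAT occurred in 6 of the 36 called genes with a window (16.7%), against 5.03% of measured genes and 5.45% of all genes, and those 6 were H2AC4, H2AC20, H2BC3, H2BC7, H2BC11 and H2BC14. It also occurred in 10 of 12 measured H2B genes (83.3%), whether or not they were called.

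Genes of DNA replication, which are also expressed in S phase, were not called in either direction. None of the 46 measured members of that list passed the limma test (10 had an unadjusted p under 0.05), the median was 0.06, and 19 were below 0. Over all genes, 0.231% were called, 12.8% had an unadjusted p under 0.05 and 47.0% were below 0, so the absence of calls is no result about this list. After a further quantile normalization the median was 0.12, 9 members were below 0 and 1 was called higher. In the other lines the median of the list was 0.25 in D4, 0.17 in A3 and 0.25 in wt, with 4, 3 and 1 members called higher and none lower. MCM6, a subunit of the replicative helicase, had log2 levels of 9.41, 9.35, 9.23 and 9.22 in CPA tumours, against 9.76, 9.79, 9.60 and 9.77 in untreated tumours. Its arrays did not overlap, but it was not called (-0.43 ± 0.10 SE, limma adjusted p = 0.0648). POLA2, a subunit of the primase complex, had log2 levels of 9.43, 9.40, 9.42 and 9.28 in CPA tumours, against 9.004, 9.09, 9.11 and 9.05 in untreated tumours. It stood higher on every CPA array without being called (0.32 ± 0.08 SE, limma adjusted p = 0.105), and after a further quantile normalization it was called higher (0.39, adjusted p = 0.00311). CDC45, a helicase cofactor (0.27 ± 0.09 SE), and POLE, the leading-strand polymerase (0.25 ± 0.08 SE), had positive differences that were not called.

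DHRS2, a short-chain dehydrogenase/reductase, fell by 0.88 (± 0.11 SE, limma adjusted p = 1.7e-05). Its log2 levels were 7.47, 7.58, 7.45 and 7.60 in CPA tumours, against 8.18, 8.33, 8.54 and 8.56 in untreated tumours. The groups did not overlap, and DHRS2 was called in every alternative fit. Its group means in treated and untreated tumours were 7.52 ± 0.08 and 8.40 ± 0.18 in D3, 7.78 ± 0.13 and 8.73 ± 0.21 in D4, 5.93 ± 0.14 and 6.55 ± 0.07 in A3, and 6.35 ± 0.17 and 6.91 ± 0.18 in wt (SD, n = 4 each, n = 3 for untreated A3). It was lower with CPA in each line, and treated D3 tumours still had a higher mean than untreated A3 or wt tumours. It was the 1 of 31 genes known to stand apart in the resistant clones that was called, beside 0.231% of all genes. That list was chosen on these samples, so its direction is no independent evidence. PASD1, a cancer/testis antigen (-0.38 ± 0.11 SE), and NTS, the peptide neurotensin (-0.47 ± 0.22 SE), belong to the same list and were not called.

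MMP10, the secreted protease stromelysin-2, had log2 levels of 6.51, 6.71, 6.68 and 6.70 in CPA tumours, against 6.98, 7.27, 7.13 and 7.21 in untreated tumours. Its groups did not overlap, and MMP10 fell by 0.50 (± 0.09 SE, limma adjusted p = 0.00377). It was the 1 of 16 measured metalloproteinase and inhibitor genes that was called, beside 0.231% of all genes. The median of that list was 0.07. Among its neighbours on chromosome 11, MMP3 had a difference of -0.43 (± 0.13 SE), MMP1 of -0.27 (± 0.10 SE) and MMP13 of -0.25 (± 0.09 SE). MMP7, also on chromosome 11, went the other way with 0.09 (± 0.10 SE). None of these was called.

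FANCF, an adaptor of the Fanconi anaemia complex that acts on crosslinks, had log2 levels of 6.59, 6.61, 6.65 and 6.40 in CPA tumours, against 6.85, 6.97, 7.13 and 6.92 in untreated tumours. It was lowest on CPA replicate 5 and was called with all arrays (-0.40 ± 0.09 SE, limma adjusted p = 0.0381) but not without that array (-0.35, adjusted p = 0.266). FANCF was the 1 of 32 measured crosslink and alkylation repair genes that was called, beside 0.231% of all genes. The median of the list was 0.03. The helicase gene BRIP1 (0.51 ± 0.20 SE) and FANCG (0.22 ± 0.08 SE) had positive differences that were not called. RAD54L, a motor protein of homologous recombination, stood higher on every CPA array (0.39 ± 0.09 SE, limma adjusted p = 0.0738) and was called higher after a further quantile normalization (0.43, adjusted p = 0.0221).

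The remaining called genes were CDC42, ZNF382 and TMEM19. CDC42, a small GTPase of the actin cytoskeleton, fell by 0.38 (± 0.08 SE). ZNF382, a KRAB zinc finger gene, fell by 0.71 (± 0.14 SE) at a low level, with a mean of 4.44 ± 0.20 in CPA tumours and 5.15 ± 0.20 in untreated tumours (SD, n = 4 each). TMEM19, a membrane protein, fell by 0.34 (± 0.07 SE). Without CPA replicate 5, ZNF382 had a limma adjusted p of 0.0862 and CDC42 of 0.154, and TMEM19 was still called at 0.0399. Over the 8 fits that each left out 1 D3 array, ZNF382 was called in 6, TMEM19 in 3 and CDC42 in none.

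Of the lists of genes that respond to DNA damage, 3 held no called gene, a count at the 0.231% called over all genes and so no result about them. None of 23 measured p53 target genes passed the limma test, with a median of -0.04; PC3 lacks functional p53. CDKN1A, the p21 inhibitor, had a difference of -0.0026 (± 0.08 SE), MDM2, the p53 ubiquitin ligase, of -0.20 (± 0.09 SE), and DDB2, a damage recognition gene, of 0.20 (± 0.07 SE). None of 17 checkpoint genes was called, including CDC25C, the phosphatase that activates CDK1 (-0.28 ± 0.10 SE), and WEE1, the kinase that inhibits it (-0.30 ± 0.13 SE). None of 27 apoptosis regulators was called, including BIRC5, known as survivin (-0.18 ± 0.07 SE), and CASP6, an effector caspase (-0.32 ± 0.10 SE).

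In all, 45 of the 50 gene lists had no called member in D3, and their medians lay between -0.17 and 0.14. With 0.231% of all genes called, the absence of calls in a list is no result about it. Heat shock genes had a median of -0.16 over 16 members, led by HSPA4, a nucleotide exchange factor (-0.31 ± 0.07 SE, limma adjusted p = 0.0653). Ribosome biogenesis genes had a median of -0.17 over 20 members, of which 19 were below 0 and none was called. A control list of 14 spliceosome and housekeeping genes had a median of -0.11, with 12 below 0. After a further quantile normalization the medians of these lists were -0.09, -0.10 and -0.03, with 15, 16 and 9 members below 0. Of the lists of drug handling, 19 aldehyde dehydrogenases, some of which detoxify a CPA metabolite, had a median of -0.07. The 25 genes of glutathione conjugation and synthesis had a median of -0.03. The 4 cytochrome P450 and reductase genes of CPA metabolism also had a median of -0.03. The 18 genes induced by NRF2, the regulator of the oxidative stress response, had a median of -0.12 with 13 below 0, and 11 drug efflux transporters had a median of 0.10 with 2 below 0. Of the angiogenesis regulators none of 19 was called, and THBS1, the angiogenesis inhibitor thrombospondin-1, had a difference of -0.09 (± 0.10 SE).

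**Figure D3:**
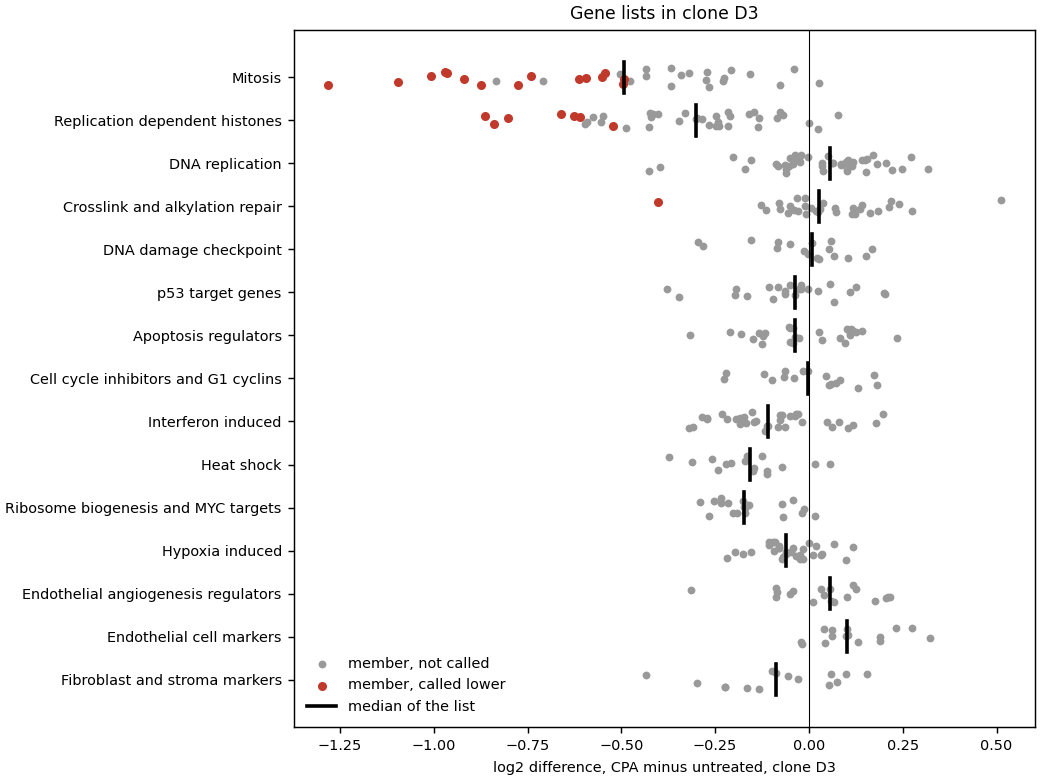
Each point is a measured member of 1 of 15 gene lists, with its log2 difference (CPA minus untreated, clone D3) on the horizontal axis, red where called lower and grey where not called, and the black bar is the median of the list. The mitosis and histone lists lie to the left with medians of -0.49 and -0.30, and the medians of the other lists shown lie between -0.17 and 0.10.

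Markers of host cells were also read, since probes for human genes can pick up transcripts of the animal in which a tumour grew. No gene of the 8 host cell lists was called in D3, beside 0.231% called over all genes, so this is no result about them. The mean of 15 endothelial markers was 6.21 to 6.35 in CPA tumours and 6.10 to 6.20 in untreated tumours, a difference of 0.12 without overlap. KDR, the main receptor for VEGF, was at 8.63 in CPA tumours and 8.53 in untreated tumours, and CDH5, the endothelial cadherin, at 5.71 in CPA tumours and 5.52 in untreated tumours. The mean of 15 fibroblast and stroma markers was 6.77 to 6.87 in CPA tumours and 6.89 to 6.96 in untreated tumours, a difference of -0.09, also without overlap. The means of the other 6 lists overlapped between the groups. Their differences were 0.13 for erythroid, 0.10 for adipocyte, 0.10 for macrophage, 0.09 for keratinocyte, 0.08 for lymphocyte and -0.004 for skeletal muscle markers. A rise was thus not particular to endothelial markers. Among single genes, 5.64% lay lower and 3.96% higher without overlap. DCN and LUM, which define fibroblasts, were near the bottom of the array in untreated tumours, at percentiles 1.89 and 0.843, while the collagen gene COL1A1 was at 96.3. Of the endothelial markers 4 of 15 and of the fibroblast markers 7 of 15 stood above the median gene, and of the other 6 lists 0 to 2 members each did. Without CPA replicate 5 the median difference was 0.09 for the endothelial and -0.07 for the fibroblast markers, and with it 0.10 and -0.09. The part of host cells in the results above was not tested.

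The number of called genes depended on CPA replicate 5. The direction of the 40 could not turn without it, since their CPA and untreated arrays did not overlap. Without CPA replicate 5, 26 genes were called, all lower and all among the 40, and the differences of the 40 ran from -1.29 to -0.35. The genes no longer called were HMMR, CENPE, CDKN3, KIF2C, CDCA3, GTSE1, RACGAP1, H2AC4, H2AC20, H2BC3, H2BC11, FANCF, CDC42 and ZNF382, with limma adjusted p-values of 0.0549 to 0.266. Without untreated replicate 2, 24 genes were called, and without untreated replicate 5, 26 were called lower and 1 higher. Of the 40 genes, 21 were called with each of the 8 D3 arrays left out in turn. GTSE1, RACGAP1 and CDC42 were called in none of those 8 fits, and CENPE, CDCA3, FANCF, H2AC4 and H2BC3 in 1. The 11 genes called in every alternative fit were KIF20A, PLK1, CCNB1, CCNB2, AURKA, DLGAP5, H2BC7, H2BC14, H2AC15, H1-3 and DHRS2.

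The genes called in D3 were next read in the other lines, whose arrays D3 does not share. The calls are not fully separate, since all lines share 1 estimate of the spread per gene. Of the 40, 20 were called lower in D4, 30 in A3 and 7 in wt, and none was called higher. Over all genes, lower calls made up 0.364% in D4, 0.248% in A3 and 0.0404% in wt, and higher calls 0.664%, 0.104% and 0.00578% in the same order. The median difference of the 40 was -0.61 in D3, -0.42 in D4, -0.64 in A3 and -0.32 in wt, with 40, 39, 40 and 40 of them below 0. Over all genes, 47.0%, 57.2%, 51.1% and 45.9% were below 0 in the same order. The 40 genes were chosen in D3, so their values there are favoured by the choice beside those of the other lines. KIF20A had differences of -1.28 in D3, -1.11 in D4, -1.44 in A3 and -0.998 in wt, each called. PLK1, CCNB1, BUB1, CDC20 and DHRS2 were also called in each of the 4 lines. MMP10 was called in D3 and in A3 (-0.57, limma adjusted p = 0.00202), and had -0.23 in D4 and -0.19 in wt. POLA2, at 0.32 in D3, was called higher in D4 (0.38, limma adjusted p = 0.0158), A3 (0.47, adjusted p = 0.00573) and wt (0.42, adjusted p = 0.0401).

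**Figure D4:**
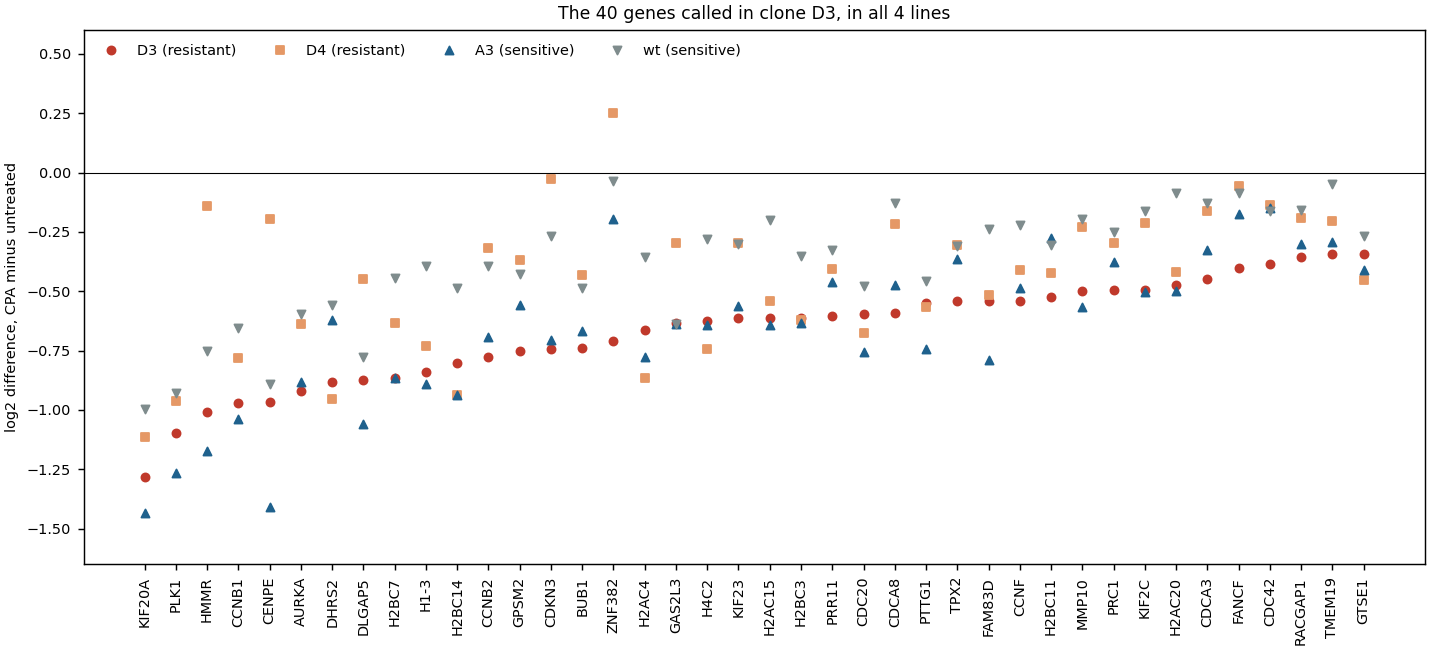
The vertical axis is the log2 difference (CPA minus untreated) of the 40 genes called in D3, sorted by their difference in D3, with 1 symbol for each line. Points of all 4 lines lie below 0 for each gene except ZNF382, whose difference in D4 was 0.25.

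Whether the response of D3 differed from that of another line was tested as a difference of differences. No gene differed between D3 and the sensitive clone A3 by the limma test (507 had an unadjusted p under 0.05, 2.93%, smallest adjusted p 0.99992), and none differed between D3 and wt (1144 at an unadjusted p under 0.05, 6.61%, smallest adjusted p 0.733). A p that misses the threshold does not show that the lines responded alike: for KIF20A, D3 minus A3 was 0.15 (± 0.16 SE) and D3 minus wt -0.28 (± 0.15 SE). Between D3 and D4, the other resistant clone, 15 genes were called (0.0866%), 10 with a higher difference in D3 (0.0578%) and 5 with a lower one (0.0289%), and 4662 genes had an unadjusted p under 0.05 (26.9%). Across 17314 genes, which are not independent replicates, the differences of D3 correlated with those of D4 at -0.36, with those of A3 at 0.47 and with those of wt at 0.08, from comparisons that share no arrays. The arrays of narrowest interquartile range, D3 CPA replicate 5 (2.64) and untreated D4 replicate 1 (2.68), stand in opposite arms. The correlations were not computed without them or after a further quantile normalization, so their part in the value of -0.36 was not tested. Of the 40 genes called in D3, only ZNF382 was among the 15 genes called between D3 and D4: -0.71 in D3 and 0.25 in D4 (limma adjusted p = 0.0443).

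Of the 15 genes 12 had a mean level below that of the median gene, and none was called after a further quantile normalization. Among the 10 were IL1R2, the decoy receptor for interleukin-1 (0.37 in D3 and -0.47 in D4), and NMB, the peptide neuromedin B (0.23 in D3 and -0.50 in D4). Among the 5 was CCDC59 (-0.54 in D3 and 0.56 in D4). The mean level of the 10 genes was 6.10 to 6.27 in D3 CPA tumours and 5.81 to 5.91 in untreated D3 tumours, and 5.68 to 5.80 in D4 CPA tumours and 6.08 to 6.26 in untreated D4 tumours. The 10 genes were chosen on these same arrays, so a higher difference in D3 than in D4 was fixed by the choice. The arrays with the narrowest interquartile ranges among these 16, D3 CPA replicate 5 (2.64) and untreated D4 replicate 1 (2.68), had the highest means in their groups. Leaving out 1 of the 16 arrays at a time gave 0 calls in 10 of 16 fits, these arrays among them, and 1 call in 3 fits. It gave 6 calls without D3 CPA replicate 2, 177 without untreated D3 replicate 1 and 1147 without untreated D4 replicate 2. Without both arrays of narrowest range no gene was called.

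**Figure D5:**
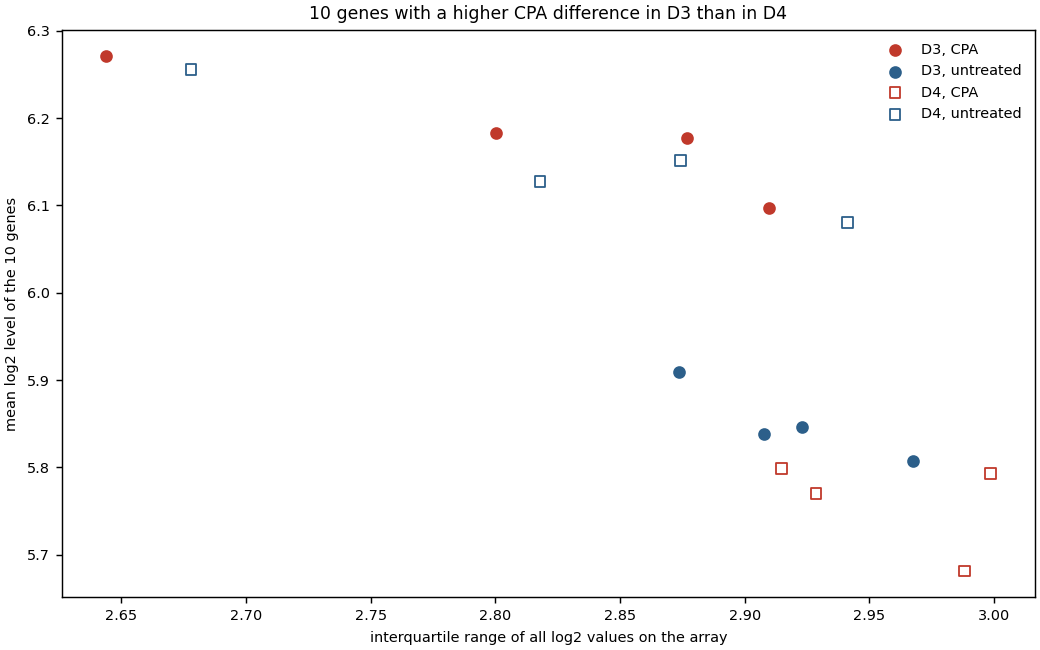
Each point is 1 of 16 arrays of D3 (filled circles) or D4 (open squares), CPA in red and untreated in blue, with the interquartile range of its log2 values on the horizontal axis and the mean log2 level of the 10 genes on the vertical axis. D3 CPA replicate 5 lies at the upper left with a range of 2.64 and a mean of 6.27, beside untreated D4 replicate 1 with 2.68 and 6.26. The 10 genes were chosen on these same arrays.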

How the data were processed

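Total RNA of PC3 xenografts was hybridised to 31 arrays of the type Affymetrix Human Gene 1.0 ST. The deposited values are log2 expression levels of 23989 probe sets, made by the authors with RMA, per the submitters' processing notes; the software and version are not given in the sources used here. Of the probe sets, 17624 carried 1 symbol in the platform annotation, and the set with the highest mean was kept for each of 17314 genes. The 6365 others were read from a fit of all 23989 probe sets, with p-values adjusted over all of those.

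limma 3.58.1 in R 4.3.3 was fitted to all 31 arrays with 8 group means (23 residual degrees of freedom). Differences of CPA effects were contrasts of the same fit, and p-values were adjusted over all genes. The fit was tested on simulated data. The number of arrays limits the precision. Lists are described by counts and medians, with no set test. The genes, lists, rules and tests were chosen with earlier results of these data known.

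Genes were named by rule: the 12 lowest and 12 highest called differences, with uncalled genes of smallest p where calls ran out; up to 4 genes of smallest p in each list; the 5 of smallest p in each direction of each difference between lines; and THBS1, DHRS2 and CDKN1A. All 40 called genes are given, 23 of them outside the rule and named after their values were seen, as were the other uncalled genes, such as MKI67, TOP2A and FOXM1. The labels do not say whether replicate numbers pair the arrays. Deviations of same-numbered D3 arrays correlated at 0.14, -0.21 and -0.08, and these few values cannot exclude a pairing. The alternatives were other fits, normalizations, filters and probe set rules, and each array left out in turn. No scan dates or batches were used.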

Additional observations from a re-analysis of the deposited data

Results flagged for a closer look

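In 14 of the 196 pairs of a D3 group and a named gene, 1 array lay far from the other 3, where chance flags about 1 in 20 groups. The measure is the gap to the nearest array over the range of the group. CPA replicate 5 was the low array for AURKA (0.916), CDCA3 (0.867), POLA2 (0.843) and HMGB2 (0.846). CPA replicate 2 was low for MMP10 (0.865) and MMP13 (0.902), CPA replicate 3 for KIF20A (0.873), and CPA replicate 4 was high for H2AC15 (0.850) and COL18A1 (0.913). Untreated replicate 3 was low for HMMR (0.860), GAS2L3 (0.856) and MCM6 (0.845), untreated replicate 2 high for H2BC7 (0.876) and untreated replicate 5 high for CDC45 (0.890). For the called genes among these, the groups did not overlap even so.

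The CPA difference in D3 minus that in D4 was called for 15 genes. It was 0.84 for IL1R2, 0.76 for LINC01260, 0.73 for NMB, 0.72 for CCNP and 0.68 for CLEC12A-AS1. It was -1.10 for CCDC59, -0.96 for ZNF382, -0.75 for CHAC2, -0.70 for CEP85L and -0.68 for CYB5R4. With 1 of the 16 arrays left out, no gene was called in 10 of 16 fits.

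Outside the genes with 1 symbol, 3 of 6365 probe sets were called for CPA in D3, all lower. A set shared by SLC35F6 and CENPA, the centromeric histone H3, had a difference of -0.584, a set shared by UBE2F-SCLY and UBE2F -0.413, and a set without a symbol -0.695.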

How the results depend on the processing

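For CPA in D3, the 40 called genes kept their sign in every alternative, and 11 kept their call in all. Leaving out an array could not turn their sign, since the CPA and untreated arrays of these genes did not overlap. The number called was 18 (1 higher, 17 lower) with the replicate number as a block and only the D3 arrays fitted, and 185 (38 higher, 147 lower) with array weights; other fits gave 35 to 50. Higher calls numbered 2 with the replicate block, 3 after quantile normalization, 3 without the dimmest 30% of genes, and 1 each with a variance trend, median centring or no moderation of the variance. With 1 D3 array left out, 24 to 39 genes were called, 24 to 35 lower and 0 to 5 higher. The 15 calls of D3 against D4 became 1199 with the replicate block and only those groups, 0 with the replicate block, 4 in a fit of those groups alone, 1 with median centring, 776 with array weights, and 0 after quantile normalization, with all probe sets, without moderation or without the 2 arrays of narrowest range (the last chosen after seeing the data). The calls of D3 against D4 numbered 13 with a variance trend, 10 without the dimmest 30% of genes and 15 with the mean of all probe sets of a gene. They were 0 to 1147 with 1 array left out, most without D4 untreated replicate 2 (1147), then without D3 untreated replicate 1 (177). The labels do not say what arrays of the same replicate number share, so what the block stands for is not known. D3 against A3 or wt gave 0 calls throughout. Among uncalled genes the sign turned for AURKB (0.016 after quantile normalization), FOXM1 (-0.029 with the replicate block and only the D3 arrays, -0.039 to 0.106 with 1 D3 array left out) and CDKN1A (0.0012 with the replicate block, -0.021 to 0.013 with 1 D3 array left out). The cause was not tested in any of these. The number of arrays limits the precision, and the median residual SD over all 31 arrays was 0.148.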
